A study of Homo sapiens with 12 samples.

Results

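The genes that encode the subunits of oxidative phosphorylation were followed in MKL-1 cells, a virus-positive line of Merkel cell carcinoma, after treatment with EPZ011989, an inhibitor of the histone methyltransferase EZH2. Members were taken by name: rows of the authors' normalized gene table whose symbol is that of a subunit of NADH dehydrogenase (the NDUFA, NDUFB, NDUFC, NDUFS and NDUFV genes), succinate dehydrogenase (SDHA to SDHD), the cytochrome bc1 complex (CYC1 and the UQCR genes), cytochrome c oxidase (the COX5 to COX8 genes), ATP synthase (the ATP5F, ATP5M and ATP5P genes) or a protein encoded in mitochondrial DNA. Of 28813 rows, 154 matched, 57 of these were pseudogenes and were left out, and 97 remained. These were 84 nuclear and 13 mitochondrially encoded genes, with 43 in complex I, 4 in complex II, 11 in complex III, 18 in complex IV and 21 in complex V. NDUFA4, named for complex I, is a subunit of cytochrome c oxidase and was counted there. In all, 92 members (79 nuclear, 13 mitochondrial) had enough reads to be tested among 15024 genes.

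The study held 4 groups of 3 polyA-selected RNA libraries: 3 µM EPZ011989 for 6 days, vehicle for 6 days, 3 µM EPZ011989 for 12 days, and vehicle for 12 days. Every culture contained 1% ethanol, which alone was the vehicle, and was split into fresh medium every 3 days. All libraries come from the 1 cell line, so they speak for no other Merkel cell carcinoma. The labels do not say whether the libraries of a group came from separate cultures, so the p-values speak only for the scatter of these libraries, and that scatter may be technical. A library held 15501935 to 20208917 reads assigned to genes. In CPM, reads of a gene were scaled to the library's reads of the tested genes and to its TMM factor. All 9 Merkel cell carcinoma markers checked (among them INSM1, CHGA and ISL1) averaged at least 1 CPM in each group. They summed to 2445 to 2533 CPM with EPZ011989 and 2842 to 2939 CPM with vehicle at day 6, and to 2511 to 2721 CPM with EPZ011989 and 2596 to 2829 CPM with vehicle at day 12. Fibroblast markers summed to 21.5 to 28.7 CPM with EPZ011989 and 14.9 to 18.8 CPM with vehicle at day 6, and to 18.6 to 21.0 CPM with EPZ011989 and 9.86 to 14.5 CPM with vehicle at day 12. Leukocyte markers summed to 1.46 to 4.12 CPM and endothelial markers to 3.74 to 7.31 CPM. Proliferation markers (MKI67, TOP2A, PCNA and others, 5 genes) summed to 2283 to 2366 CPM with EPZ011989 and 2789 to 2943 CPM with vehicle at day 6, and to 691 to 747 CPM with EPZ011989 and 2928 to 3202 CPM with vehicle at day 12. The part of these markers in the results was not tested. Within a group, the counts of a pair of libraries differed by a chi-square per degree of freedom of 4.15 to 8.57, except vehicle replicates 1 and 3 of day 12, which stood further apart at 16.31.

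Oxidative phosphorylation makes most of the ATP of resting animal cells in the inner mitochondrial membrane. Complexes I and II pass electrons from NADH and succinate to ubiquinone, complex III passes them to cytochrome c and complex IV to oxygen, and complex V, the ATP synthase, uses the proton gradient that complexes I, III and IV build. All complexes but complex II are mosaics: mitochondrial DNA encodes their membrane core proteins, while nuclear genes encode the remaining subunits, which are imported. Mitochondrial mRNAs are cut from long transcripts of each strand, which POLRMT makes with the help of TFAM, and most of them are stabilized by LRPPRC.

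On the mitochondrial genome the genes lie close together and some share bases, which bears on how far their read counts can be told apart. MT-ATP8 and MT-ATP6, both subunits of the membrane part of ATP synthase, share 46 bases (chrM:8527-8572, plus strand, GRCh38), which is 22.2% of the 207 bases of MT-ATP8. The shared stretch is shown 5′ to 3′, with the start codon of MT-ATP6 in capitals.
MT-ATP8 and MT-ATP6 overlap: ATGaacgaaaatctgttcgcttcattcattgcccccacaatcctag
Both genes are read from 1 bicistronic mRNA, so reads that fall in this stretch could be assigned to either gene. MT-ATP6 had 31.9 times the mean CPM of MT-ATP8. MT-ND4L and MT-ND4 share 7 bases (chrM:10760-10766), which is 2.36% of MT-ND4L, and MT-ND4 had 20.4 times its CPM. MT-ATP6 also overlaps MT-CO3 in the annotation, at similar CPM.

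The promoters of 4 nuclear genes are shown because these genes changed in opposite directions at day 12: ATP5ME and ATP5PF (ATP synthase, lower) and NDUFA13 and NDUFB8 (complex I, higher). They were chosen after their values were seen. Each runs from 250 bases before to 50 after the RefSeq start (GRCh38.p14), 5′ to 3′ on the gene's strand, and capitals mark matches to the motifs of NRF-1 (GCATGCGC), ETS factors (ACCGGAAG), YY1 (AAGATGGC), ERR (TCAAGGTCA) and E2F (TTTGGCGC or TTTCCCGC), searched on both strands.
ATP5ME (chr4:674227-674526, minus strand; NRF-1 and ETS): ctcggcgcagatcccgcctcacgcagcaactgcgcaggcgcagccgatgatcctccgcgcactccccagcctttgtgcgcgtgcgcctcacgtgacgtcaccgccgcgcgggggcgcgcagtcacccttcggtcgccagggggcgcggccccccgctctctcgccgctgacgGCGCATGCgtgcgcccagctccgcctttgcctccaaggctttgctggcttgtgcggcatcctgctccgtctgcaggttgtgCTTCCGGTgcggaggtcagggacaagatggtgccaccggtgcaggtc
ATP5PF (chr21:25735005-25735304, minus strand; NRF-1 and YY1): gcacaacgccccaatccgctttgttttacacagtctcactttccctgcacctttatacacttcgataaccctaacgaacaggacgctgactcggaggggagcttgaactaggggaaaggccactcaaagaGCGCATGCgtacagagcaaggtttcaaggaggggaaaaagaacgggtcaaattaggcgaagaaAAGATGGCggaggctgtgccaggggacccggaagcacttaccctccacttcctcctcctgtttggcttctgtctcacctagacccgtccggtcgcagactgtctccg
NDUFA13 (chr19:19515975-19516274, plus strand; E2F and ETS): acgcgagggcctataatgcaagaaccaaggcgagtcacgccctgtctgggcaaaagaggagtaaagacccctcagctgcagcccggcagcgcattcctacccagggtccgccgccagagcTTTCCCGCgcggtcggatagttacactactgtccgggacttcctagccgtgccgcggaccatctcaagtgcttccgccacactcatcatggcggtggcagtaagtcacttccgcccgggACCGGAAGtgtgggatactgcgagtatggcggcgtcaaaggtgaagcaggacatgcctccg
NDUFB8 (chr10:100529874-100530173, minus strand; no match): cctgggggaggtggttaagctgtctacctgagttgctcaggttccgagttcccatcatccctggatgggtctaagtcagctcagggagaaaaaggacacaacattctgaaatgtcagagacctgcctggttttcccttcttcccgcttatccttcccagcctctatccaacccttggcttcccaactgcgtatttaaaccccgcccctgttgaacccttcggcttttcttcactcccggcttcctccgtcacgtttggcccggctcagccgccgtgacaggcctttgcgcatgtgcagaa
Promoters were sought for the 84 nuclear members only and found in RefSeq for 66 of them. The NRF-1 letters were in 13 of the 66 (19.7%), against 4.26% of 15248 promoters of all genes and 6.32% of 8310 promoters of well-read genes, those that average 10 CPM or more. The YY1 letters were in 11 (16.7%), against 3.98% of all promoters and 6.32% of those of genes with at least 10 CPM. The ETS letters were in 4 (6.06%, against 3.20% of all and 4.86% of well-read), the E2F letters in 5 (7.58%, against 3.08% and 4.04%) and the ERR letters in 1 (1.52%, against 0.236% and 0.132%). Of the 26 promoters whose gene fell at day 12, 7 held NRF-1 letters, 4 YY1, 3 E2F, 2 ETS and 0 ERR letters. Of the 6 whose gene rose, NRF-1, YY1, E2F and ETS letters were in 1 each and ERR letters in 0. These splits were not tested. UQCRC1, which fell too, held YY1 letters and no NRF-1 letters, unlike ATP5ME and ATP5PF shown above. A match is a run of letters, not a bound site, and no motif is contained in another.

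Per base of transcript, the mitochondrial mRNAs were far above the nuclear ones. In TPM, a share of transcripts scaled for length, means over all 12 libraries reached from 19672 TPM for MT-CO2 and 18593 TPM for MT-CO1, catalytic subunits of complex IV, down to 3142 TPM for MT-ND5, a proton-pumping subunit of complex I. Between them lay MT-ATP6 (12229 TPM), MT-CO3 (11609 TPM), MT-ND3 (10530 TPM), MT-ND4L (7263 TPM), MT-ND4 (6973 TPM), MT-ATP8 (6086 TPM), MT-ND1 (5221 TPM), MT-ND2 (4919 TPM), MT-CYB (4897 TPM) and MT-ND6 (3915 TPM). The highest nuclear members per complex were UQCRH of complex III (1356 TPM), COX6A1 of complex IV (1290 TPM), NDUFS5 of complex I (1195 TPM), ATP5MF of complex V (1154 TPM) and SDHB of complex II (136 TPM). The lowest tested ones were SDHD (93.3 TPM), NDUFV3 (48.8 TPM), the readthrough transcript ATP5MF-PTCD1 (3.82 TPM), COX6B2 (1.47 TPM) and UQCRHL (1.37 TPM). Within all complexes that have both kinds, each mitochondrial member was above each nuclear member on this scale.

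The 13 mitochondrial members together took 4.37, 4.36 and 4.39% of gene reads in the EPZ011989 libraries of day 6, against 4.25, 3.58 and 3.59% in the vehicle libraries of day 6. At day 12 they took 3.87, 3.71 and 3.60% with EPZ011989, against 4.85, 4.48 and 4.04% with vehicle. The treated libraries thus lay above all vehicle libraries at day 6 and below all of them at day 12, although vehicle replicate 1 of day 6 came close to its treated counterparts. The vehicle groups themselves spread more, with means of 3.80 ± 0.383% at day 6 and 4.46 ± 0.408% at day 12, than the treated groups with 4.37 ± 0.0148% at day 6 and 3.73 ± 0.135% at day 12 (SD, n = 3 each). The 84 nuclear members took 0.778, 0.775 and 0.764% of reads with EPZ011989 and 0.803, 0.867 and 0.850% with vehicle at day 6, and 0.698, 0.734 and 0.727% with EPZ011989 and 0.769, 0.756 and 0.807% with vehicle at day 12. The nuclear share was thus lower in the treated libraries at both days, without overlap, while the mitochondrial share was higher at day 6 and lower at day 12. In bulk RNA, fewer cells of a type and less RNA per cell cannot be told apart.

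**Figure D1:**
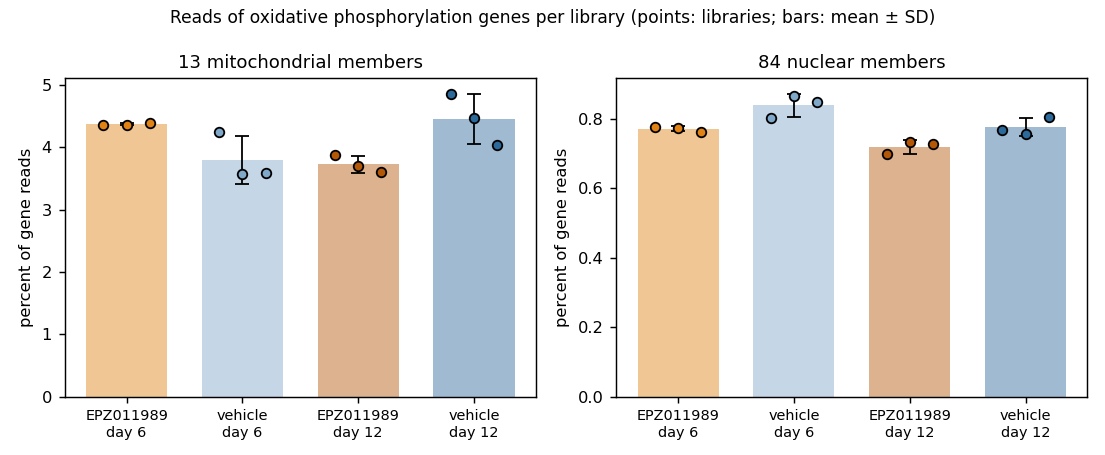
Percent of gene reads taken by the 13 mitochondrial members (left) and the 84 nuclear members (right) in each group. Points are libraries and bars are group means with SD; the mitochondrial mean was 4.37% with EPZ011989 and 3.80% with vehicle at day 6, and 3.73% with EPZ011989 and 4.46% with vehicle at day 12.

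At day 6, 3 of the 13 mitochondrial mRNAs rose and the other 10 were not called (edgeR quasi-likelihood, adjusted p under 0.05 over all 15024 genes). None fell by edgeR, none did so at an unadjusted p under 0.05, and none by DESeq2 or limma, which gave 0 each. Among all genes tested, 34.2% were called at day 6, 17.1% higher and 17.0% lower. The median log2 fold change of the mitochondrial members was 0.10, beside -0.02 for all genes. MT-CO2, which holds the copper centre that takes electrons from cytochrome c, had 5354, 5748 and 5421 CPM with EPZ011989, against 5305, 4323 and 4247 CPM with vehicle. Treated libraries were all higher, by little over vehicle replicate 1 (log2 fold change 0.25 ± 0.09 SE, edgeR adjusted p = 0.0479). MT-CO1, the subunit that reduces oxygen, had 14584, 14530 and 15204 CPM with EPZ011989, against 13983, 11743 and 11746 CPM with vehicle (0.24 ± 0.08, edgeR adjusted p = 0.0269). MT-ND1, at the ubiquinone site of complex I, had 2167, 2136 and 2116 CPM with EPZ011989, against 2094, 1789 and 1816 CPM with vehicle (0.17 ± 0.05, edgeR adjusted p = 0.0183). Each of the 3 rested on single libraries. Without vehicle replicate 2 of day 6, edgeR adjusted p was 0.128 for MT-CO2, 0.0795 for MT-CO1 and 0.0512 for MT-ND1, and without vehicle replicate 3 it was 0.14, 0.0814 and 0.0509 in the same order. Leaving out treated replicate 1 ended all 3 calls as well, with adjusted p of 0.0747, 0.0547 and 0.0597, and leaving out treated replicate 2 or 3 ended those of MT-CO2 (0.143 and 0.0862) and MT-CO1 (0.0532 and 0.0868) by edgeR. The call of MT-CO2 also ended without vehicle replicate 2 or treated replicate 3 of day 12 (edgeR adjusted p = 0.0564 each), by DESeq2 (adjusted p = 0.076), with transcript lengths as an offset (edgeR adjusted p = 0.0505) and by limma on the authors' table (adjusted p = 0.0556). Limma did not call MT-ND1 either (adjusted p = 0.0512). Without vehicle replicate 1, the values were larger, at 0.38 for MT-CO2 and 0.27 for MT-ND1, and 8 mitochondrial mRNAs were called.

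At day 12, 11 of the 13 mitochondrial mRNAs fell, 1 rose and 1 did not pass the test by edgeR. Limma on the authors' table called 9 lower and 2 higher. By edgeR 10 fell and 1 rose without vehicle replicate 1 of day 12, and 11 fell and 2 rose without vehicle replicate 3. Among all genes tested, 66.9% were called at day 12, 33.7% higher and 33.2% lower, and among well-read genes (10 CPM or more) 74.1% were called, 43.2% lower. The median log2 fold change of the mitochondrial members was -0.34, beside 0.02 for all genes and -0.10 for well-read genes. In 10 of the 13, all treated libraries lay below all vehicle libraries, against 33.6% of all genes.

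The lower group held mRNAs of all 4 complexes with a mitochondrial part. MT-CYB, the cytochrome b core of complex III, had 2152, 2012 and 2024 CPM with EPZ011989, against 2894, 2999 and 2602 CPM with vehicle (log2 fold change -0.46 ± 0.07, edgeR adjusted p = 2.49e-05). The groups did not overlap. MT-ATP6, the proton channel of ATP synthase, had 2372, 2268 and 2145 CPM with EPZ011989, against 3717, 3280 and 2807 CPM with vehicle (-0.53 ± 0.08, edgeR adjusted p = 4.97e-05). Its treated libraries again lay below every vehicle library. MT-ATP8, its small partner subunit, had 55.7, 73.0 and 53.2 CPM with EPZ011989, against 201, 87.0 and 88.6 CPM with vehicle (-1.05 ± 0.25, edgeR adjusted p = 0.00185). The groups did not overlap, but vehicle replicate 1 stood far above the other two, and without it the log2 fold change was -0.54 (edgeR adjusted p = 0.00096).

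The oxidase core fell together. MT-CO1 had 13024, 12344 and 12162 CPM with EPZ011989, against 17846, 15727 and 13873 CPM with vehicle (log2 fold change -0.34 ± 0.08, edgeR adjusted p = 0.00147). MT-CO2 had 4613, 4146 and 4099 CPM with EPZ011989, against 6239, 5944 and 4821 CPM with vehicle (-0.40 ± 0.09, edgeR adjusted p = 0.00138). MT-CO3, which flanks MT-CO1 in the oxidase, had 2846, 2842 and 2719 CPM with EPZ011989, against 3223, 3170 and 3467 CPM with vehicle (-0.23 ± 0.05, edgeR adjusted p = 0.00122). All treated libraries were below all vehicle libraries in each of the 3 genes. In the authors' normalized table the MT-CO3 difference was smaller and not called (limma log2 difference -0.13, adjusted p = 0.0643).

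Of the complex I mRNAs, 5 of 7 fell. MT-ND5 had 2747, 2597 and 2445 CPM with EPZ011989, against 3543, 3307 and 3039 CPM with vehicle (log2 fold change -0.34 ± 0.07, edgeR adjusted p = 0.00043). MT-ND4 had 4189, 4006 and 3819 CPM with EPZ011989, against 5955, 5321 and 4481 CPM with vehicle (-0.39 ± 0.09, edgeR adjusted p = 0.00138). Both are proton-pumping subunits of the membrane arm, and neither showed overlap of the groups. MT-ND2, another of them, had 2182, 2051 and 1995 CPM with EPZ011989, against 2849, 2605 and 2183 CPM with vehicle (-0.29 ± 0.09, edgeR adjusted p = 0.00735), with the highest treated library just under the lowest vehicle library. Taking transcript lengths into account, the MT-ND2 value was -0.17 (edgeR adjusted p = 0.0241), and limma on the authors' table gave -0.14 (adjusted p = 0.044).

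MT-ND6, the only member encoded on the other strand of mitochondrial DNA, had 538, 545 and 510 CPM with EPZ011989, against 746, 596 and 556 CPM with vehicle (log2 fold change -0.25 ± 0.08, edgeR adjusted p = 0.0115). Without vehicle replicate 1 its value was -0.12 (edgeR adjusted p = 0.0291), and limma on the authors' table gave -0.15 (adjusted p = 0.0718). The MT-ND6 gene (chrM:14149-14673) begins directly after MT-ND5 (chrM:12337-14148), which lies on the opposite strand. The labels do not say whether the libraries keep strand, so reads of the opposite strand may be counted for MT-ND6. Their part in its value was not tested. MT-ND4L had 191, 237 and 159 CPM with EPZ011989, against 335, 220 and 252 CPM with vehicle (-0.46 ± 0.16, edgeR adjusted p = 0.0186), and its groups overlapped. Its reads may not be told apart from those of the far more abundant MT-ND4 where the genes overlap. The MT-ND4L call was lost without vehicle replicate 1 (-0.27, edgeR adjusted p = 0.106), without treated replicate 1 (-0.43, adjusted p = 0.058) and without treated replicate 3 (-0.33, adjusted p = 0.0911).

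A pair of complex I mRNAs did not fall. MT-ND1 had 2437, 2358 and 2366 CPM with EPZ011989, against 2126, 2144 and 1977 CPM with vehicle, and all treated libraries were higher (log2 fold change 0.20 ± 0.05, edgeR adjusted p = 0.00359). Limma on the authors' table gave it a larger value, 0.31 (adjusted p = 5.7e-05). MT-ND3 had 480, 584 and 493 CPM with EPZ011989, against 444, 389 and 535 CPM with vehicle, with overlap of the groups (0.19 ± 0.11, edgeR adjusted p = 0.144). Limma on the authors' table called it higher (0.36, adjusted p = 0.00308), as did edgeR with transcript lengths as an offset and edgeR without vehicle replicate 3 of day 12. The MT-ND1 gene (chrM:3307-4262, GRCh38) is the first protein gene after the ribosomal RNA genes, on the same strand as the next, MT-ND2. Copies of mitochondrial genes in the nuclear genome, 394 by name, summed to 143 to 382 CPM per library, with the highest sum in vehicle replicate 1 of day 12, the library in which MT-ATP8 and MT-ND4L were also highest; their part in these values was not tested.

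**Figure D2:**
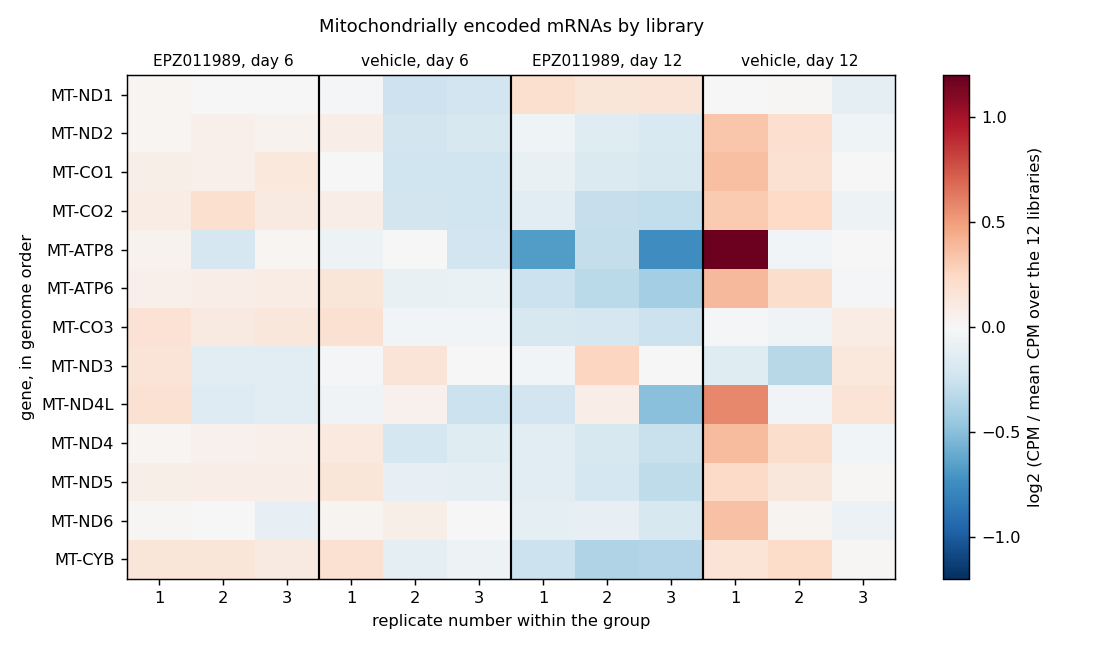
Level of each mitochondrially encoded mRNA (rows, in genome order) in each library (columns), as log2 of its CPM over its mean CPM in all 12 libraries. The day 12 EPZ011989 columns are blue for most genes and red for MT-ND1, and vehicle replicate 1 of day 12 is reddest at MT-ATP8 (201 CPM).

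Among the nuclear members at day 12, 8 rose, 32 fell and 39 of the 79 tested did not pass the test. That is 10.1% higher and 40.5% lower, beside 33.7% higher and 33.2% lower among all genes, and 30.9% higher and 43.2% lower among well-read genes. The share of falls is thus close to that of similarly expressed genes, and the share of rises is below it. The median log2 fold change was -0.17, beside -0.10 for well-read genes. All treated libraries lay below all vehicle libraries in 34 nuclear members (43.0%) and above them in 8 (10.1%), against 33.6% and 35.5% of all genes. Without vehicle replicate 3 of day 12, 14 members of both genomes rose, against 9 with all libraries. Proliferation markers, given above, were lower in the same libraries; their part in the changes of the members was not tested.

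In ATP synthase all calls were falls. Of its 18 tested nuclear subunits, 12 fell (66.7%), beside 43.2% lower and 30.9% higher among well-read genes. The median log2 fold change of the 18 subunits was -0.26. None rose by edgeR, none at an unadjusted p under 0.05, and DESeq2 and limma gave 0 each. The falls took in 3 of 5 subunits of the catalytic F1 head, 3 of 4 of the peripheral stalk, 1 of 3 of the proton-carrying c-ring genes and all 5 of the other membrane subunits tested. ATP5ME, a membrane subunit that helps ATP synthase form dimers, had 15.1, 22.0 and 18.4 CPM with EPZ011989, against 28.3, 25.1 and 33.5 CPM with vehicle (log2 fold change -0.64 ± 0.13, edgeR adjusted p = 0.000678). ATP5PF, coupling factor 6 of the peripheral stalk, had 91.1, 100 and 92.3 CPM with EPZ011989, against 155, 135 and 123.1 CPM with vehicle (-0.54 ± 0.08, edgeR adjusted p = 1.59e-05). Neither gene's groups overlapped. ATP5MF, the most abundant nuclear ATP synthase mRNA per length, had 64.7, 77.3 and 75.2 CPM with EPZ011989, against 92.1, 83.8 and 106 CPM with vehicle (-0.38 ± 0.10, edgeR adjusted p = 0.00311).

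The 3 c-ring genes, ATP5MC1, ATP5MC2 and ATP5MC3, encode the same mature protein and differ in the targeting sequence that is cut off on import. Per length, ATP5MC2 was highest (401 TPM over all libraries), before ATP5MC3 (315 TPM) and ATP5MC1 (164 TPM). At day 12 ATP5MC2 had 65.8, 69.2 and 81.7 CPM with EPZ011989, against 86.8, 83.0 and 88.3 CPM with vehicle (log2 fold change -0.25 ± 0.07, edgeR adjusted p = 0.00786), and the call was lost without treated replicate 1 (-0.18, adjusted p = 0.0617). ATP5MC1 had 30.2, 28.3 and 27.6 CPM with EPZ011989, against 28.8, 36.3 and 33.8 CPM with vehicle (-0.20 ± 0.09, edgeR adjusted p = 0.0526). ATP5MC3 had 87.1, 94.6 and 94.7 CPM with EPZ011989, against 98.6, 96.8 and 117 CPM with vehicle (-0.17 ± 0.10, edgeR adjusted p = 0.129). The 3 log2 fold changes differ by less than the standard error of ATP5MC3.

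Of the 11 tested nuclear genes of complex IV, 5 fell at day 12 (median log2 fold change -0.17). None rose by edgeR, none at an unadjusted p under 0.05, and DESeq2 and limma gave 0 each. The share of falls, 45.5%, was close to the 43.2% of well-read genes, of which 30.9% were higher. COX7B, a small membrane subunit, had 70.3, 74.2 and 71.1 CPM with EPZ011989, against 102, 106 and 102 CPM with vehicle (log2 fold change -0.52 ± 0.06, edgeR adjusted p = 1.95e-06). COX6C had 53.8, 67.7 and 59.4 CPM with EPZ011989, against 108, 77.4 and 86.4 CPM with vehicle (-0.58 ± 0.11, edgeR adjusted p = 0.00024). COX6A1, the isoform of most tissues, had 167, 173 and 168 CPM with EPZ011989, against 202, 215 and 201 CPM with vehicle (-0.28 ± 0.05, edgeR adjusted p = 8.99e-05). In all 3 the treated libraries lay below the vehicle libraries. COX7C and NDUFA4 were the other two that fell, with log2 fold changes of -0.31 and -0.43; they are named because few fell, after their values were seen.

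The isoform pairs of complex IV showed the general isoform and hardly the tissue-restricted one. COX6A2, the heart and muscle isoform, COX7B2 and COX8C had 0 reads in all 12 libraries, where a count of 0 allows up to 0.148 to 0.194 CPM per library. COX7A1, the other muscle isoform, had 11 reads in all with EPZ011989 at day 12 (0.0512, 0.302 and 0.225 CPM) and 2 at day 6, against 0 in all vehicle libraries, and was not tested. COX7A2, its general counterpart, had 92.5, 101 and 96.8 CPM with EPZ011989, against 112, 101 and 97.8 CPM with vehicle at day 12, with no call (-0.09 ± 0.06, edgeR adjusted p = 0.172). COX6B2, the testis isoform, had 1.59, 2.61 and 1.46 CPM with EPZ011989, against 1.42, 0.560 and 1.16 CPM with vehicle at day 12 (0.86 ± 0.47, edgeR adjusted p = 0.118). COX6B1 had 56.1, 61.5 and 65.0 CPM with EPZ011989, against 42.4, 58.2 and 68.5 CPM with vehicle (0.11 ± 0.13, edgeR adjusted p = 0.474), and COX8A 105, 117 and 107 CPM with EPZ011989, against 106, 118 and 140 CPM with vehicle (-0.15 ± 0.08, edgeR adjusted p = 0.13). Of these general and testis isoforms, COX6A1, above, and COX7B passed the test at day 12.

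Complex III was mixed at day 12, with 3 of its 10 nuclear members lower and 1 higher (median log2 fold change 0.01). The shares, 30% lower and 10% higher, were below the 43.2% and 30.9% of well-read genes. UQCRC1, a core protein of the matrix side, had 157, 166 and 164 CPM with EPZ011989, against 225, 228 and 237 CPM with vehicle and no overlap (-0.50 ± 0.04, edgeR adjusted p = 8.95e-08). UQCRFS1, the Rieske iron-sulfur protein, and UQCRC2, the other core protein, also fell, by 0.43 and 0.14 on the log2 scale; UQCRC1, UQCRFS1 and UQCRC2 were picked after their values were seen. UQCRH, the hinge protein between cytochrome c1 and cytochrome c, had 180, 193 and 183 CPM with EPZ011989, against 174, 213 and 256 CPM with vehicle (-0.21 ± 0.10, edgeR adjusted p = 0.072). UQCRHL, a retrocopy of UQCRH, had 3.79, 3.37 and 2.81 CPM with EPZ011989, against 0.515, 0.729 and 0.966 CPM with vehicle, and no overlap (2.16 ± 0.42, edgeR adjusted p = 0.000392). The copy holds 505 of 516 aligned bases in common with UQCRH (97.9%), and UQCRH had far more reads, so reads of the parent could be assigned to the copy and the UQCRHL value is uncertain.

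All 4 subunits of complex II are nuclear, and they did not move together at day 12. SDHA, the flavoprotein that oxidizes succinate, had 96.4, 102 and 111 CPM with EPZ011989, against 140, 137 and 141 CPM with vehicle (log2 fold change -0.44 ± 0.06, edgeR adjusted p = 8.22e-06). SDHB, the iron-sulfur subunit, had 50.2, 52.1 and 46.0 CPM with EPZ011989, against 65.7, 63.4 and 59.1 CPM with vehicle (-0.34 ± 0.08, edgeR adjusted p = 0.00139). Both soluble subunits thus fell without overlap. Of the membrane anchors, SDHC had 62.1, 63.8 and 64.5 CPM with EPZ011989, against 52.3, 52.0 and 51.0 CPM with vehicle (0.29 ± 0.06, edgeR adjusted p = 0.000977). SDHD had 46.4, 39.8 and 34.6 CPM with EPZ011989, against 46.9, 50.7 and 42.3 CPM with vehicle (-0.21 ± 0.10, edgeR adjusted p = 0.0846). The SDHC rise depended on lengths: with transcript lengths as an offset it was 0.07 (edgeR adjusted p = 0.482), and limma on the authors' table gave 0.10 (adjusted p = 0.343).

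Complex I held 6 of the 8 nuclear rises. Of its 36 nuclear subunits, 6 rose and 10 fell at day 12 (median log2 fold change -0.08), with 1 rise and 3 falls among the 7 core subunits that carry the redox centres, and 5 rises and 7 falls among 29 accessory subunits. Over the 36, the shares of 16.7% higher and 27.8% lower were below the 30.9% and 43.2% of well-read genes. NDUFB8, an accessory subunit of the membrane arm, had 82.3, 93.3 and 93.4 CPM with EPZ011989, against 51.5, 58.8 and 74.3 CPM with vehicle (0.54 ± 0.11, edgeR adjusted p = 0.00057). NDUFA13, also known as GRIM-19, had 93.3, 108 and 107 CPM with EPZ011989, against 64.9, 69.9 and 86.3 CPM with vehicle (0.48 ± 0.11, edgeR adjusted p = 0.00106). Neither showed overlap of the groups. In both genes vehicle itself was lower at day 12 than at day 6 (log2 fold change -0.40 for NDUFB8 and -0.55 for NDUFA13). Those vehicle calls were lost without vehicle replicate 2 or 3 of day 6. NDUFA7 had 20.7, 25.3 and 26.7 CPM with EPZ011989, against 16.3, 18.0 and 20.0 CPM with vehicle (0.42 ± 0.12, edgeR adjusted p = 0.0075). NDUFV3 had 101, 106 and 110 CPM with EPZ011989, against 86.4, 80.4 and 95.4 CPM with vehicle (0.28 ± 0.07, edgeR adjusted p = 0.00346), which was 0.12 with transcript lengths as an offset (edgeR adjusted p = 0.258) and 0.14 by limma on the authors' table (adjusted p = 0.18). The other two rises were NDUFA8 and NDUFS3, at 0.21 and 0.17, named after their values were seen.

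The deepest falls of complex I were in accessory subunits. NDUFC1 had 12.5, 13.1 and 11.3 CPM with EPZ011989, against 23.9, 17.1 and 25.0 CPM with vehicle (log2 fold change -0.84 ± 0.15, edgeR adjusted p = 0.000228). NDUFA12, of the matrix arm, had 20.0, 20.4 and 21.5 CPM with EPZ011989, against 40.3, 31.4 and 32.2 CPM with vehicle (-0.75 ± 0.10, edgeR adjusted p = 1.61e-05). NDUFS5, the nuclear complex I mRNA with the highest level per length, had 146, 166 and 161 CPM with EPZ011989, against 229, 207 and 207 CPM with vehicle (-0.44 ± 0.06, edgeR adjusted p = 8.1e-06). No vehicle library of these 3 genes reached down to a treated one.

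**Figure D3:**
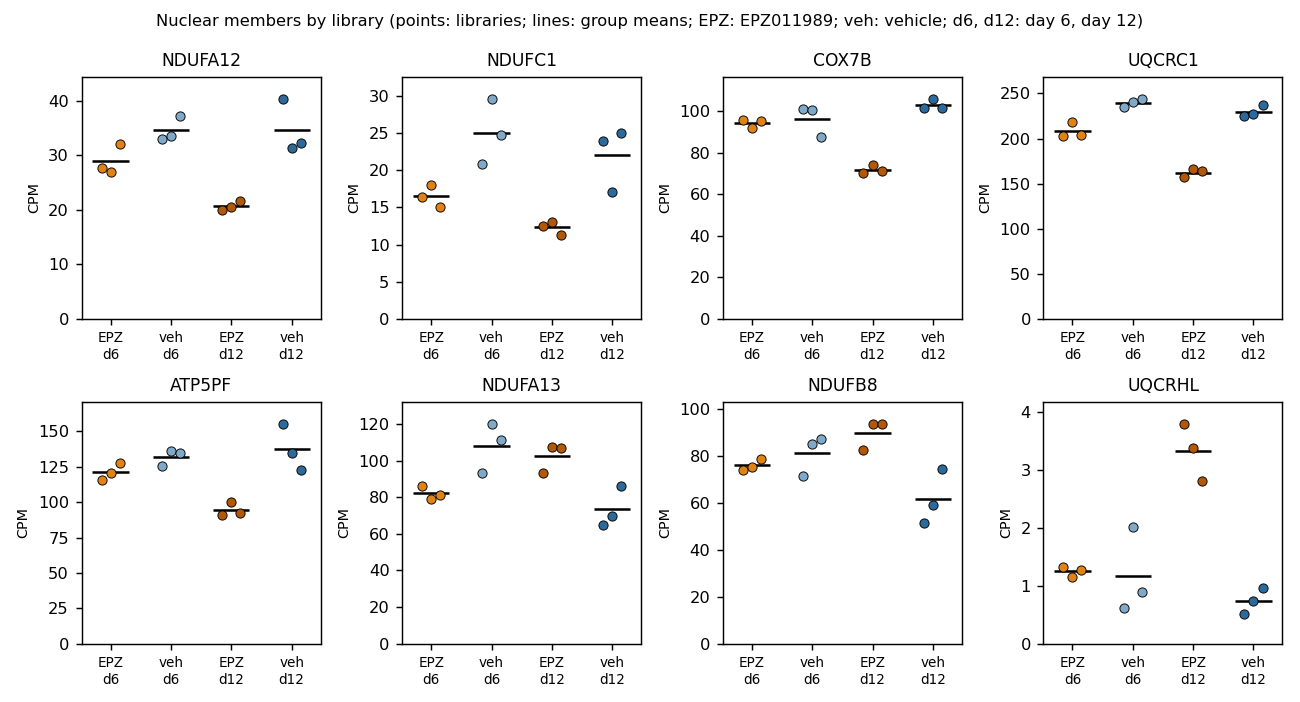
CPM of 8 nuclear members in each library; points are libraries and lines group means, with EPZ011989 left of vehicle at each day. NDUFA12, NDUFC1, COX7B, UQCRC1 and ATP5PF are lower with EPZ011989 at day 12, while NDUFA13, NDUFB8 and UQCRHL are higher, and NDUFA13 is lower at day 6.

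At day 6 the nuclear members leaned downward: 30 of 79 fell (38.0%) and 2 rose (2.53%), beside 17.0% lower and 17.1% higher among all genes and 23.4% lower and 16.0% higher among well-read genes (39.4% called in all). Their median log2 fold change was -0.15, beside -0.02 for all genes. All treated libraries lay below all vehicle libraries in 38 nuclear members (48.1%), against 27.1% of all genes. The falls were 15 of 36 in complex I (4 of 7 core, 11 of 29 accessory), 2 of 4 in complex II, 4 of 10 in complex III, 3 of 11 in complex IV and 6 of 18 in complex V. With library totals in place of TMM scaling, 19 nuclear members fell and 2 rose, 17 fell and 1 rose by limma on the authors' table, and with transcript lengths as an offset 12 fell and 1 rose. The number of falls thus depended on the fit. Leaving out vehicle replicate 2 or 3 of day 6, or any treated library of day 6, also lowered the count of members called by more than 1.5 times, to 12, 12, 19, 19 and 20 of 92, against 35 with all libraries.

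NDUFA2, an accessory subunit of the matrix arm, had the largest fall among the members called at day 6, with 28.1, 25.1 and 24.8 CPM with EPZ011989, against 35.7, 45.7 and 44.2 CPM with vehicle (log2 fold change -0.69 ± 0.13, edgeR adjusted p = 0.000835). NDUFC1 had 16.5, 18.1 and 15.1 CPM with EPZ011989, against 20.8, 29.6 and 24.7 CPM with vehicle (-0.60 ± 0.15, edgeR adjusted p = 0.00654), and 0.0533 was its adjusted p without vehicle replicate 2. ATP5MF had 80.7, 87.6 and 81.0 CPM with EPZ011989, against 98.8, 119 and 120 CPM with vehicle (-0.44 ± 0.09, edgeR adjusted p = 0.00256). In all 3 genes every treated library was below every vehicle library. NDUFA13 had 86.1, 79.2 and 81.0 CPM with EPZ011989, against 93.3, 120 and 111 CPM with vehicle (-0.40 ± 0.10, edgeR adjusted p = 0.00876), and the call was lost without vehicle replicate 2 (-0.30, adjusted p = 0.0721).

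NDUFB2 and NDUFB3, small subunits of the membrane arm, fell less securely at day 6. NDUFB2 had 40.0, 37.6 and 37.7 CPM with EPZ011989, against 45.3, 52.3 and 54.2 CPM with vehicle (log2 fold change -0.40 ± 0.12, edgeR adjusted p = 0.0206). Its call was lost without vehicle replicate 2 or 3 or treated replicate 2 or 3, with edgeR adjusted p of 0.0874, 0.109, 0.0655 and 0.0638. NDUFB3 had 30.3, 25.9 and 27.4 CPM with EPZ011989, against 29.4, 42.8 and 40.1 CPM with vehicle, with overlap (-0.42 ± 0.14, edgeR adjusted p = 0.0269). Leaving out the same libraries gave NDUFB3 edgeR adjusted p of 0.168, 0.123, 0.0984 and 0.0767, so its call was lost too, as it was with transcript lengths as an offset (edgeR adjusted p = 0.058) and by limma (adjusted p = 0.0503). Both rises of day 6 were small: COX7A2 had 105, 111 and 112 CPM with EPZ011989, against 98.8, 98.1 and 92.8 CPM with vehicle (0.18 ± 0.06, edgeR adjusted p = 0.0287), and SDHC 61.8, 62.4 and 54.3 CPM with EPZ011989, against 52.0, 55.6 and 50.5 CPM with vehicle (0.17 ± 0.06, edgeR adjusted p = 0.0492). The COX7A2 call was lost without vehicle replicate 3 or treated replicate 2 or 3 (edgeR adjusted p = 0.0795, 0.0868 and 0.0987), with transcript lengths as an offset (edgeR adjusted p = 0.0812) and by limma on the authors' table (adjusted p = 0.112). The SDHC call was lost by edgeR with no low-count filter (adjusted p = 0.0629), without vehicle replicate 1 or 3 or treated replicate 1 or 2 of day 6 (0.0849, 0.126, 0.164 and 0.175) and without vehicle replicate 2 or treated replicate 3 of day 12 (0.0637 and 0.0589).

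**Figure D4:**
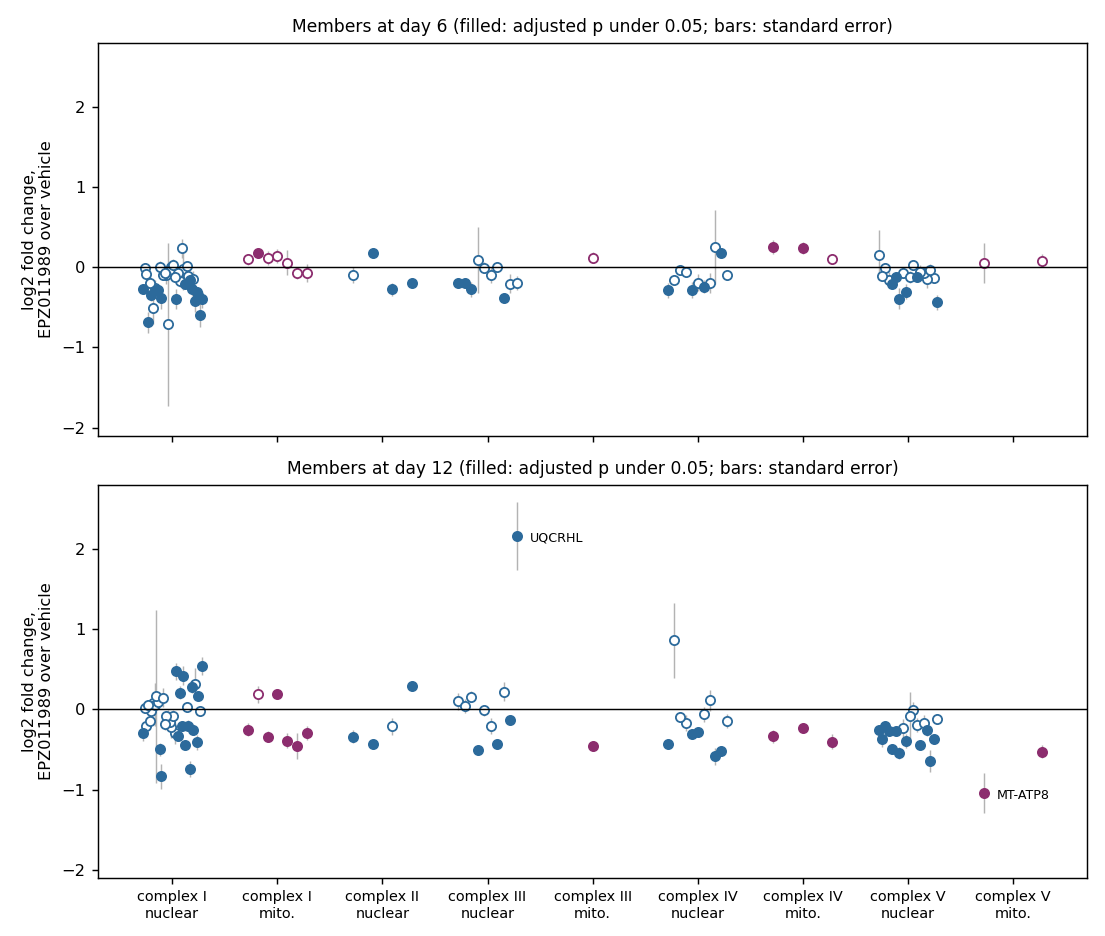
Log2 fold change of EPZ011989 over vehicle at day 6 (top) and day 12 (bottom) for each tested member, by complex and genome; filled points have an edgeR adjusted p under 0.05 and bars are standard errors. At day 12 the nuclear and mitochondrial members of complex V all lie at or below 0, nuclear complex I lies on both sides, and UQCRHL is highest at 2.16.

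The effect itself was compared between days as the day 12 effect minus the day 6 effect. Of all genes tested 47.7% differed, 22.6% upward and 25.1% downward, as did 57.9% of well-read genes (25.4% upward, 32.5% downward), and of the members 12 differed upward and 31 downward. Mitochondrial mRNAs accounted for 9 of the downward differences (median -0.50). None differed upward by edgeR, none at an unadjusted p under 0.05 and 0 by DESeq2, and limma on the authors' table called 1. For MT-CO1 the effect was -0.34 at day 12 and 0.24 at day 6, a difference of -0.58 ± 0.11 (edgeR adjusted p = 0.000587), and for MT-CO2 it was -0.40 at day 12 and 0.25 at day 6, a difference of -0.66 ± 0.13 (edgeR adjusted p = 0.00084). These mRNAs were thus called higher at 1 day and lower at the other. MT-CYB differed by -0.58 ± 0.09 (edgeR adjusted p = 0.000155), MT-ATP6 by -0.61 ± 0.12 (edgeR adjusted p = 0.000592) and MT-ATP8 by -1.10 ± 0.35 (edgeR adjusted p = 0.018), which was -0.59 without vehicle replicate 1 of day 12. Limma on the authors' table gave MT-ATP6 -0.40, MT-ND4 -0.32 in place of -0.50 by edgeR, MT-ND2 -0.22 in place of -0.44, and MT-ND5 -0.29 in place of -0.44. With transcript lengths as an offset MT-ND2 was at -0.26.

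Nuclear members differed between days in both directions, 12 upward (15.2%) and 22 downward (27.8%). These shares were below the 25.4% and 32.5% of well-read genes, and among all genes they were 22.6% and 25.1%. Upward differences lay in complex I (9) and complex III (3), and downward ones in complex I (4), complex II (1), complex III (2), complex IV (6) and complex V (9). Downward calls depended on the fit: limma on the authors' table made 10 in all, with 1 in complex IV and 5 in complex V, and edgeR made 12 with transcript lengths as an offset, 13 without treated replicate 2 of day 6 and 13 without treated replicate 1 of day 12. Upward calls were 10 by limma and 9 with transcript lengths. NDUFA13 had the effect 0.48 at day 12 and -0.40 at day 6, a difference of 0.87 ± 0.15 (edgeR adjusted p = 0.000229). NDUFA2 had 0.08 at day 12 and -0.69 at day 6, a difference of 0.77 ± 0.18 (edgeR adjusted p = 0.00305). NDUFB8 differed by 0.64 ± 0.16 (edgeR adjusted p = 0.00368), NDUFB2 by 0.54 ± 0.17 (edgeR adjusted p = 0.0181) and UQCRHL by 2.07 ± 0.59 (edgeR adjusted p = 0.0101). The NDUFB2 difference was lost without vehicle replicate 3 of day 6, vehicle replicate 2 of day 12 or treated replicate 3 of day 12 (edgeR adjusted p = 0.0561, 0.0509 and 0.0546). NDUFA1, an accessory membrane subunit, differed by 0.82 ± 0.28 (edgeR adjusted p = 0.0277). Its call was lost in 7 of 12 fits that left out 1 library: without vehicle replicate 2 (adjusted p = 0.089) or treated replicate 1 or 3 of day 6 (0.0597 and 0.066), and without vehicle replicate 1 or 2 (0.0605 and 0.0745) or treated replicate 2 or 3 of day 12 (0.0779 and 0.0551).

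Vehicle libraries also differed between days, and both enter the difference above. Between vehicle at day 12 and vehicle at day 6, 13.1% of all genes were called, 5.96% higher and 7.15% lower (of well-read genes 18.0%, 8.26% higher and 9.7% lower), and of the members 1 rose and 12 fell. Complex I held 9 of the 12 falls. NDUFA2 had 22.8, 27.4 and 33.2 CPM in vehicle at day 12, against 35.7, 45.7 and 44.2 CPM in vehicle at day 6 (log2 fold change -0.59 ± 0.13, edgeR adjusted p = 0.0148), and NDUFA13 had 64.9, 69.9 and 86.3 CPM in vehicle at day 12, against 93.3, 120 and 111 CPM in vehicle at day 6 (-0.55 ± 0.11, edgeR adjusted p = 0.00998). Neither overlapped between the days. COX5A fell by 0.41, NDUFB8 by 0.40, NDUFB2 by 0.39 and CYC1, cytochrome c1, by 0.36 on the log2 scale. MT-CO1 rose, with 17846, 15727 and 13873 CPM in vehicle at day 12, against 13983, 11743 and 11746 CPM in vehicle at day 6 (0.34 ± 0.08, edgeR adjusted p = 0.0179). Set beside these, MT-CO1 averaged 12510 CPM with EPZ011989 at day 12 and 12490 CPM with vehicle at day 6, a pair that was not tested against each other.

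Few of these calls held when 1 library was left out. No nuclear member rose by edgeR, with 1 at an unadjusted p under 0.05, 1 by DESeq2 and 0 by limma. With only the vehicle libraries fitted, no member was called. Without vehicle replicate 2 or 3 of day 6 no member was called either, without vehicle replicate 1 or 2 of day 12 there were 3 and 2, and without vehicle replicate 1 of day 6 or replicate 3 of day 12 there were 24 and 35, against 13. Without vehicle replicate 2 or 3 of day 6 the edgeR adjusted p was 0.0786 and 0.0693 for NDUFA2, 0.0612 and 0.0534 for NDUFA13, 0.0946 and 0.0785 for COX5A, 0.132 and 0.136 for NDUFB8, 0.155 and 0.172 for NDUFB2, 0.057 and 0.0559 for CYC1, and 0.0795 and 0.0744 for MT-CO1. Without vehicle replicate 1 or 2 of day 12 it was 0.0501 and 0.0533 for NDUFA2, 0.0689 and 0.0695 for COX5A, 0.122 and 0.107 for NDUFB8, 0.176 and 0.151 for NDUFB2, and 0.0607 and 0.0533 for MT-CO1 by edgeR. The NDUFB2 call also ended without treated replicate 1, 2 or 3 of day 6 (edgeR adjusted p = 0.0648, 0.0648 and 0.0656) and treated replicate 1 or 2 of day 12 (0.053 and 0.0671).

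A few members are uncertain for how reads were assigned. NDUFA3 and NDUFA6 are summed only in part here, at 0.259 and 0.367 of the level in the authors' table, since some of their transcripts were not matched. In the authors' normalized table NDUFA6 had 1042 ± 88.2 with EPZ011989 and 1926 ± 111 with vehicle at day 12 (SD, n = 3 each; limma log2 difference -0.89, adjusted p = 1.56e-07), and 1678 ± 83.4 with EPZ011989 and 1961 ± 9.10 with vehicle at day 6 (-0.23, adjusted p = 0.0385). On the partial sums of reads it did not pass the test at either day. NDUFA3 did not pass at day 12 in the authors' table either (0.10, limma adjusted p = 0.601). Exons of 42 members overlap exons of another counted gene, and for 26 that gene had at least 0.1 of the member's CPM. The mean CPM of the overlapping gene was 5.03 times that of NDUFS3 for CELF1, 4.34 times that of NDUFA2 for IK, 2.92 times that of NDUFB3 for FAM126B, 2.04 times that of NDUFB2 for BRAF, 1.53 times that of NDUFB8 for HIF1AN, 1.25 times that of NDUFA7 for RPS28, 0.98 times that of ATP5PF for GABPA, 0.82 times that of ATP5ME for MYL5, 0.48 times that of NDUFA1 for RNF113A and 0.44 times that of NDUFA13 for YJEFN3. The labels do not say whether the libraries keep strand, so reads of such pairs may not be told apart. ATP5MGL had 1 to 5 reads per group and was not tested. ATP5MF-PTCD1 shares exons with ATP5MF and was not called at day 12 (-0.08 ± 0.30, edgeR adjusted p = 0.818).

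Subunits that the name rule missed were 6 tested genes, of which 3 rose and 1 fell at day 12. Among all genes 33.7% were higher and 33.2% lower, and among well-read genes 30.9% and 43.2%. With so few genes, the counts say little about these subunits as a set. COX4I2, the lung and hypoxia-related isoform of subunit 4 of the oxidase, averaged 4.0 ± 1.29 CPM with EPZ011989 and 0.112 ± 0.194 CPM with vehicle, where it had 6 reads in all (log2 fold change 4.97, edgeR adjusted p = 4.11e-05). NDUFA4L2, related to NDUFA4, averaged 2.42 ± 0.750 CPM with EPZ011989 and 0.787 ± 0.215 CPM with vehicle (1.61, edgeR adjusted p = 0.00254). COX7A2L, which joins complexes III and IV in supercomplexes, averaged 52.7 ± 3.08 CPM with EPZ011989 and 65.4 ± 1.29 CPM with vehicle (-0.31, edgeR adjusted p = 0.000623). The third rise was CYCS, cytochrome c, with 324 ± 3.70 CPM with EPZ011989 and 293 ± 8.76 CPM with vehicle (0.15, edgeR adjusted p = 0.00528), chosen after its values were seen to complete the count.

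Assembly factors, which build the complexes, were mixed at day 12, beside 30.9% higher and 43.2% lower among well-read genes. Of those for complex I, 1 rose and 8 fell of 19 (42.1% lower), among them NDUFAF6 (-0.86), NDUFAF4 (-0.77) and ACAD9 (-0.47). Of those for complex II, 1 of 4 fell, SDHAF3 (-0.77), and of those for complex III, 2 rose and 2 fell of 9, with UQCC2 at 0.62, UQCC1 at 0.37 and TTC19 at -0.43. Of those for complex IV, 5 rose and 12 fell of 25 (48.0% lower), including CMC2 (-1.06), COA4 (-0.98) and HIGD1A (-0.43). For ATP synthase, 3 rose and 1 fell of 6, with ATPAF2 at 0.59, FMC1 at 0.80 and ATPAF1 at -0.67. ATPAF1 and ATPAF2, which chaperone subunits of the F1 head, thus went opposite ways.

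For the machinery of mitochondrial gene expression, shares at day 12 are set beside the 43.2% lower and 30.9% higher among well-read genes. Among mitochondrial ribosomal proteins 46 of 77 fell (59.7%) and 5 rose (6.49%; median log2 fold change -0.29), with MRPL37 at -0.82, MRPL11 at -1.11 and MRPS6 at 0.91. Of the factors for mitochondrial transcription and DNA upkeep, 11 of 21 fell (52.4%) and 5 rose (23.8%; median -0.22), shares not far from those of well-read genes. TFAM, which packages mitochondrial DNA and starts its transcription, averaged 63.2 ± 3.42 CPM with EPZ011989 and 121.5 ± 7.98 CPM with vehicle (-0.94, edgeR adjusted p = 2.36e-09). DNA2, a nuclease of nuclear and mitochondrial DNA, averaged 22.7 ± 1.90 CPM with EPZ011989 and 83.6 ± 8.40 CPM with vehicle (-1.88, edgeR adjusted p = 7.08e-11), and MGME1, a mitochondrial exonuclease, was at -1.11. POLRMT, the RNA polymerase of mitochondria, went the other way, with 92.5 ± 6.37 CPM with EPZ011989 and 73.9 ± 9.62 CPM with vehicle (0.32, edgeR adjusted p = 0.00244). Of the RNA processing and stability factors 11 of 20 fell (55.0%) and 2 rose (10.0%; median -0.29), with ELAC2, which trims tRNA ends, at -0.62, LRPPRC at -0.39 and the deadenylase PDE12 at -0.37.

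Regulators of mitochondrial biogenesis counted 5 rises (26.3%) and 9 falls (47.4%) of 19 (median log2 fold change -0.21), close to the 30.9% and 43.2% of well-read genes. MYCL averaged 298 ± 12.8 CPM with EPZ011989 and 95.9 ± 9.20 CPM with vehicle (1.63, edgeR adjusted p = 2.45e-11). PPRC1, a coactivator related to PGC-1, averaged 39.9 ± 1.67 CPM with EPZ011989 and 86.2 ± 1.81 CPM with vehicle (-1.11, edgeR adjusted p = 1.01e-09), GABPB1 was at -0.96 and NRF1 at -0.41. PPARGC1A, which encodes the coactivator PGC-1 alpha, averaged 2.18 ± 0.499 CPM with EPZ011989 and 1.03 ± 0.334 CPM with vehicle, with no call (1.08, edgeR adjusted p = 0.0501).

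The pathways that feed electrons and pyruvate into the chain had medians further below 0 than the nuclear members. Of the tricarboxylic acid cycle and pyruvate dehydrogenase genes 18 of 24 fell (75.0%) and 2 rose at day 12 (median log2 fold change -0.39), and of the glycolysis genes 15 of 21 fell (71.4%) and 3 rose (median -0.68), beside 43.2% lower among well-read genes. IDH3A averaged 244 ± 17.5 CPM with EPZ011989 and 47.5 ± 3.61 CPM with vehicle (2.36, edgeR adjusted p = 1.53e-12), while IDH2, which uses NADP, averaged 102 ± 7.52 CPM with EPZ011989 and 304 ± 6.12 CPM with vehicle (-1.58, edgeR adjusted p = 1.85e-12). DLAT of pyruvate dehydrogenase was at -1.02. HK1, the first enzyme of glycolysis, averaged 476 ± 23.7 CPM with EPZ011989 and 86.2 ± 2.62 CPM with vehicle (2.47, edgeR adjusted p = 2.91e-14), while GAPDH was at -1.14 and PKM at -1.16. Of the ADP/ATP and phosphate carriers 2 rose and 2 fell of 6, with SLC25A5 at -0.79, SLC25A3 at -0.21 and SLC25A23 at 0.76. The mitochondrial ribosomal RNAs were not analysed here. At day 6, when 23.4% of well-read genes were lower, 8 of 24 tricarboxylic acid cycle genes fell (33.3%) and 1 rose, and 14 of 21 glycolysis genes fell (66.7%) and 3 rose. Of the mitochondrial ribosomal protein genes 20 of 77 fell (25.97%) and 2 rose, a share of falls near that of well-read genes.

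**Figure D5:**
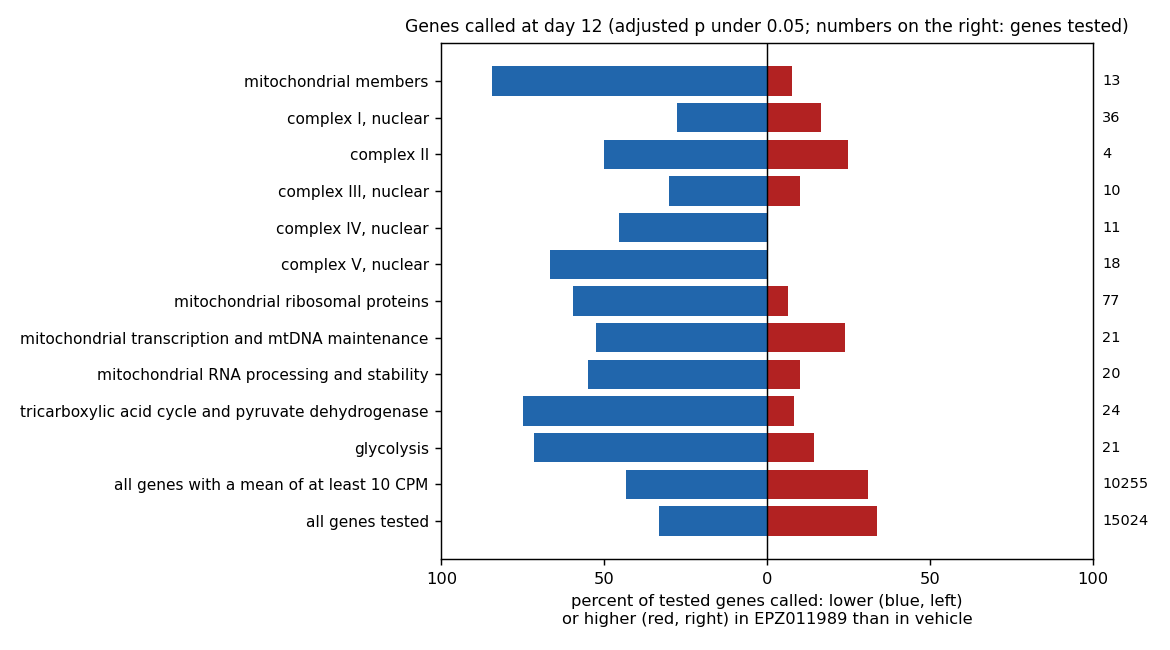
Percent of tested genes called lower (left) or higher (right) with EPZ011989 than with vehicle at day 12 (edgeR adjusted p under 0.05), for members by complex, for related lists and for all genes; the numbers on the right count tested genes. Of the 13 mitochondrial members 11 were lower, and of the 18 nuclear members of complex V 12 were lower, beside 33.2% of all genes.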

How the data were processed

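RNA of 12 libraries was measured, 3 for each of the 4 groups, taken from the sample titles. The authors deposited estimated counts per transcript (expected counts), with TPM and effective lengths, from Salmon 1.2.0. The build hg38 and the tools FastQC and DESeq2 appear beside it, all per the submitters' processing notes. They also deposited a normalized gene signal for the whole series, with a formula that no source used here gives, and 0 of its columns went unused. Here, 168219 of 179883 transcripts (93.5%) were matched by identifier to GENCODE genes on GRCh38, and their counts were summed per gene and rounded. Unmatched transcripts held 3.08 to 3.58% of reads. A library held 15994997 to 20866370 estimated reads in all, and a count of 0 allows 3 reads, or 0.148 to 0.194 CPM, for counting error only. CPM printed are scaled to the reads of the tested genes times the TMM factor of the library. Only the bound for a count of 0 uses gene reads without TMM. TPM sums the deposited values.

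Genes were kept by filterByExpr, scaled by TMM and tested with edgeR 4.0.16 in R 4.3.3 (quasi-likelihood, two-sided, 1 fit for the 4 groups) and Benjamini-Hochberg adjustment over 15024 genes at 0.05. Standard errors are the log2 fold change over the square root of F. The prior degrees of freedom were 5.89. The fit was tested on simulated data. Alternatives used DESeq2 1.42.0, limma 3.58.1 on log2(value + pseudocount) of the deposited signal, other scalings and filters, transcript lengths as offset, a replicate block and leaving out each library. limma values print with a pseudocount of 1, which understates changes of low genes.

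Members and lists were chosen with earlier results of these data known. Genes named are the 13 mitochondrial members, the 6 largest rises and falls per contrast among called members with at least 1 CPM, isoform pairs, complex II, the highest and lowest TPM per complex, untested members, the 3 smallest p per list and 5 regulators or markers by name, with exceptions stated. The promoter and overlap sequences come from RefSeq and the genome.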

Additional observations from a re-analysis of the deposited data

Results flagged for a closer look

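By edgeR's interaction contrast the effect of EPZ011989 differed between days upward in 12 and downward in 31 of the 92 tested members. Among all genes tested 22.6% differed upward and 25.1% downward, and among well-read genes 25.4% and 32.5%. The upward share of the members was below both of these, and their downward share was close to that of well-read genes. The counts alone thus do not set the members apart from other well-read genes. Of the members called, 15 are listed here: the 6 largest differences in each direction and all mitochondrial members called. Values are the day 12 effect minus the day 6 effect on the log2 scale. In the nuclear genome these were UQCRHL (2.07), NDUFA13 (0.87), NDUFA1 (0.82), NDUFA2 (0.77), NDUFB8 (0.64) and NDUFB2 (0.54), all upward. The 22 nuclear members that differed downward were outside the 6 largest downward differences and are not listed. Among them NDUFA12 and COX7B (-0.49 each) differed more than the mitochondrial members MT-ND2, MT-ND5 and MT-CO3 that are listed. Limma on the authors' table called neither NDUFA12 nor COX7B (adjusted p = 0.0668 and 0.0659). In the mitochondrial genome the listed members were MT-ATP8 (-1.10), MT-CO2 (-0.66), MT-ATP6 (-0.61), MT-CO1 (-0.58), MT-CYB (-0.58), MT-ND4 (-0.50), MT-ND2 (-0.44), MT-ND5 (-0.44) and MT-CO3 (-0.33), all downward. Limma on the authors' table gave MT-ND4 -0.32, MT-ND2 -0.22 and MT-ND5 -0.29. It gave MT-CO3 -0.20 and did not call it (adjusted p = 0.0646). The vehicle libraries of both days enter each value.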

How the results depend on the processing

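The nuclear and mitochondrial medians of both days kept their sign in all fits. No named member called in the main fit or an alternative changed sign between the fits. Sign changes of members called in neither fit were not counted. At day 6 the 35 called members (5 higher, 30 lower) became 15 with transcript lengths as offset (3 higher, 12 lower), 19 by limma at either pseudocount (2 higher, 17 lower), 21 at 1.2-fold or more (0 higher) and 12 at an adjusted p under 0.01 (0 higher, 12 lower), while library totals without TMM left 19 lower. Leaving out 1 library gave 12 to 38 called, 0 to 9 higher and 10 to 33 lower. At day 12 the 52 called members ranged from 49 to 59 without 1 library, with 7 to 14 higher and 40 to 46 lower. The 43 differences between days became 20 at an adjusted p under 0.01 and 33 to 49 without 1 library. The 13 called in vehicle became 25 with no low-count filter, 24 by DESeq2, 1 with transcript lengths, 2 by limma at either pseudocount, 2 at an adjusted p under 0.01, 0 with the vehicle libraries alone and 0 to 35 without 1 library. With the replicate number as a block they became 23; same-numbered libraries did not deviate together (correlations -0.0457 to 0.0865 over 18 pairs), so the numbers were not read as pairs. The causes were not tested.

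The nuclear median at day 6 was -0.116 with library totals, -0.126 with no filter, -0.1215 for genes of at least 1 CPM and -0.1213 with the libraries of that day alone, and the mitochondrial median was 0.130, 0.114 when scaled without mitochondrial genes, 0.1245, 0.1247 and 0.0678 by limma. At day 12 the nuclear median was -0.106 with library totals and -0.140 for genes of at least 1 CPM, and the mitochondrial one -0.257 by limma. Without 1 library, the medians ran from -0.179 to -0.090 (nuclear, day 6), 0.0825 to 0.207 (mitochondrial, day 6), -0.207 to -0.132 (nuclear, day 12) and -0.417 to -0.273 (mitochondrial, day 12). The mitochondrial share, in % of TPM, was 12.1 with EPZ011989 and 11.0 with vehicle at day 6, and 11.0 with EPZ011989 and 11.85 with vehicle at day 12. In % of member reads it was 85.0 and 81.8, then 83.8 and 85.1, in the same order. In member reads the day 12 groups overlapped, with 84.7, 83.5 and 83.2% with EPZ011989 and 86.3, 85.6 and 83.4% with vehicle. In the authors' table the mitochondrial share was 4.27% with EPZ011989 and 3.81% with vehicle at day 6, and 3.66% with EPZ011989 and 4.12% with vehicle at day 12. Without 1 library the shares ran from 4.365 to 4.378% (EPZ011989, day 6), 3.583 to 3.918% (vehicle, day 6), 3.657 to 3.792% (EPZ011989, day 12) and 4.258 to 4.666% (vehicle, day 12).

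Of the values of single members, 1830 kept their side of the threshold under the alternatives that keep all libraries, 94 lost the call and 53 gained it.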

Other observations

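In TPM, which scales for length, the 13 mitochondrial members took 12.3, 12.0 and 12.0% of the total with EPZ011989 and 11.9, 10.6 and 10.7% with vehicle at day 6. At day 12 they took 11.2, 11.1 and 10.7% with EPZ011989 and 12.5, 11.8 and 11.3% with vehicle. The groups did not overlap at either day, but the gap at day 12 was narrower than in reads. The median effective length over mitochondrial members, which Salmon estimates per library, was 448, 456 and 430 bases with EPZ011989 and 499, 454 and 462 bases with vehicle at day 12, and highest in vehicle replicate 1. The part of effective length in the differences of read counts was not tested.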
